A study of Mus musculus with 10 samples.

Results

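The levels of 10 genes were followed through 10 libraries of mouse ovary polyA RNA: Neb, Ank3, Kcnq5, Tox2, Hdc, Hao2, Abca4, Ano4, Alpk3 and Gpsm1. They are 10 of the 24306 genes in the deposited tables, and each matched exactly 1 row. The genes were chosen by measured values of these same libraries, namely the difference between Dmrt1 het Rar mutants and Rar mutants. In a test of that contrast over 20570 genes, all 10 lie within the 12 smallest p-values. Their size in that contrast is therefore a description and carries no test here.

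The ovaries came from mice aged 6 weeks on a mixed background of C57BL/6 and 129, and all groups, controls included, carried floxed retinoic acid receptors (Rara f/f, Rarb f/f and Rarg f/f). Controls (n = 5) were Dmrt1 +/+ and Sf1-Cre-, Rar mutants (n = 3) were Dmrt1 +/+ and Sf1-Cre+, and Dmrt1 het Rar mutants (n = 2) were Dmrt1 fl/+ and Sf1-Cre+. Sf1-Cre expresses a recombinase from regulatory sequence of Nr5a1, a gene used by gonadal somatic cells and by the adrenal cortex. No group carried Dmrt1 fl/+ without deletion of the receptors. Whole gonads were used, so in these bulk samples fewer cells of a type and less RNA per cell cannot be told apart. The labels do not say whether each library is a separate animal, and p-values then measure only the spread between these samples, which may be technical.

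The sample titles carry numbers, and those under 7800 are shown apart throughout. Both Dmrt1 het Rar mutants, control 1 and Rar mutant 1 have these lower numbers, and the other 6 libraries have the higher ones. The labels do not say what the numbers are. Libraries held 21064856 to 25920131 counts, and on the first principal component (34.8% of the variance) the lower numbers lay from -55.9 to -43.8 and the higher from 4.46 to 57.8. Levels are given as counts per 1e6 library counts (CPM), with the library totals scaled by edgeR's TMM factors. A gene without counts could still have up to 3, which is 0.116 to 0.142 per 1e6 unscaled library counts, for counting error only. For Dmrt1 itself 9 libraries had 0 counts, and the only counts, 5, were in the second Dmrt1 het Rar mutant, so loss of 1 allele was not detectable at this depth. Rarg gave 20.4 and 22.0 CPM in the Dmrt1 het Rar mutants, 14.9 to 19.3 CPM in the Rar mutants and 24.3 to 32.7 CPM in the controls. The groups with Cre thus did not overlap each other for Rarg, while the ranges of Rara and Rarb overlapped.

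Retinoic acid receptors are nuclear receptors that, bound to retinoic acid, switch target genes in many tissues, including somatic and germ cells of the gonad. Dmrt1 encodes a DNA-binding protein best known for maintaining the male fate of somatic cells in the testis, and its transcript is scarce in the adult ovary. The 10 genes share no single pathway. Neb encodes nebulin, which spans the thin filament of skeletal muscle, and Alpk3 an alpha kinase known from heart muscle. Ank3 encodes ankyrin-G, which ties membrane proteins to the spectrin skeleton, while Kcnq5 (a voltage-gated potassium channel), Ano4 (an anoctamin) and Abca4 (the retinoid flippase of photoreceptors) encode membrane proteins. Tox2 encodes a nuclear protein with an HMG box, and Gpsm1 a regulator of G-protein alpha subunits. The enzymes are histidine decarboxylase (Hdc), which makes histamine, and the peroxisomal hydroxyacid oxidase Hao2.

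In the Dmrt1 het Rar mutants 8 genes were higher, and Hdc and Hao2 lower, than in either other group, with no overlap of libraries for any of the 10. Over all 20570 genes tested, the 2 Dmrt1 het libraries lay outside the range of the other 8 for 18.1%, did not overlap the controls for 28.4% and did not overlap the Rar mutants for 39.3%. The last of these contrasts chose the 10 genes, so nothing is read from their count. The mean of the 2 Dmrt1 het Rar mutants exceeded that of the Rar mutants by 1.87-fold for Gpsm1 to 3.76-fold for Neb among the 8, while Hdc was 7.20-fold and Hao2 3.28-fold lower. Against the controls the same 8 were 1.47-fold (Ank3) to 3.72-fold (Neb) higher, and Hdc and Hao2 were 2.003-fold and 2.06-fold lower. The Rar mutant mean lay on the far side of the controls from the Dmrt1 het Rar mutants for every gene, although for Neb by less than its standard error in the fit. These comparisons share the same libraries, so their directions are not independent of each other or of the choice of genes.

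**Figure D1:**
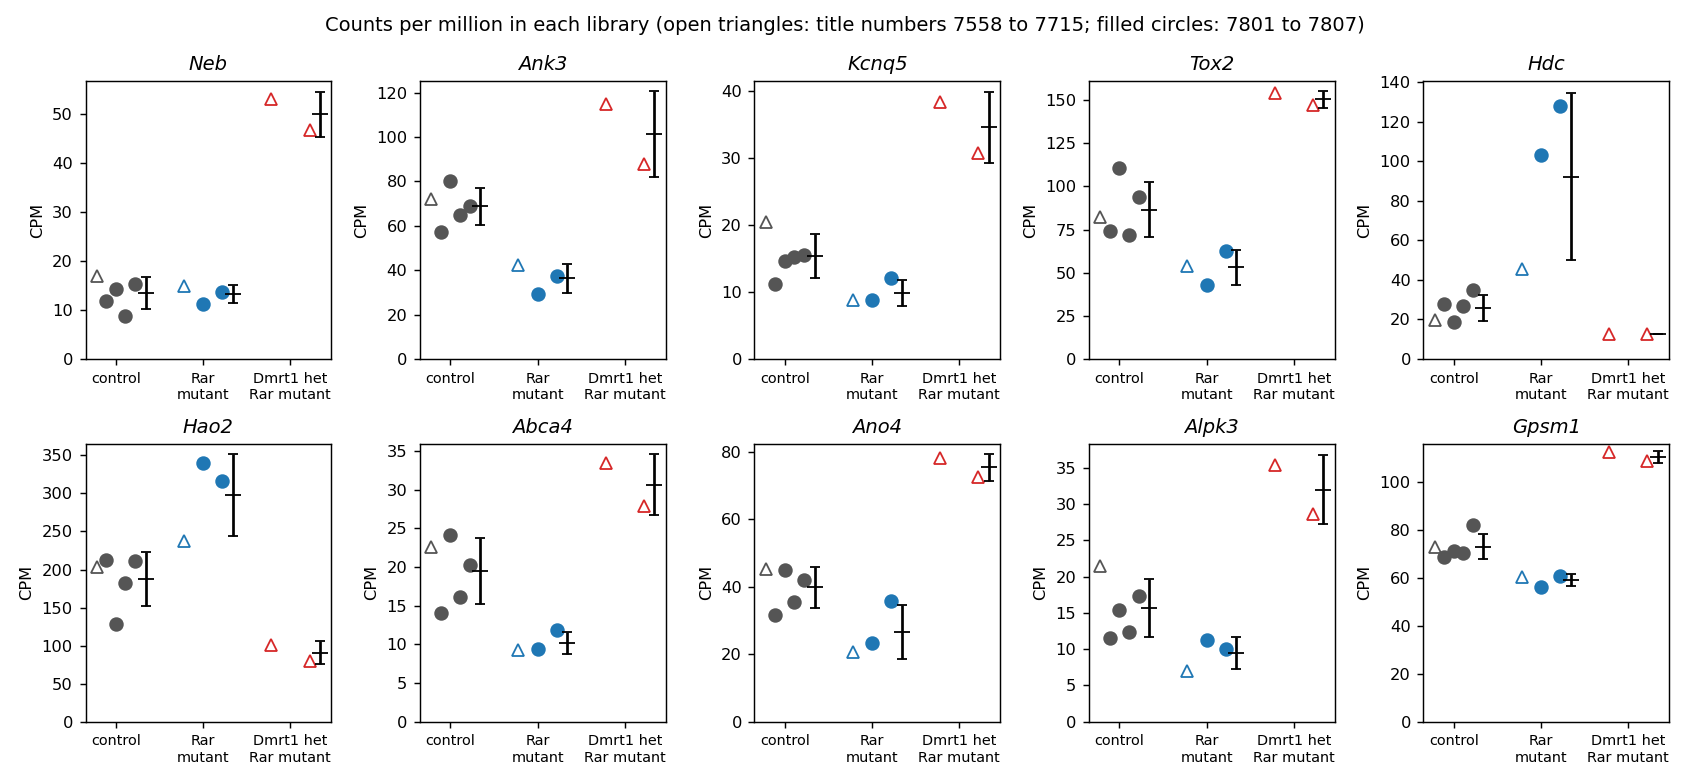
CPM of each gene in each library, by group, with the mean and SD beside the points (n = 5 controls, 3 Rar mutants, 2 Dmrt1 het Rar mutants). Open triangles are libraries with title numbers under 7800. For every gene both Dmrt1 het Rar mutants lie outside the range of the other 8 libraries, as they do for 18.1% of all genes tested.

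Neb (ENSMUSG00000026950, GRCm38 chromosome 2, 52136647 to 52378474, minus strand) gave 53.2 and 46.8 CPM in Dmrt1 het Rar mutants 1 and 2. The Rar mutants gave 14.9, 11.2 and 13.8 CPM, and controls 1 to 5 gave 17.0, 11.8, 14.4, 8.70 and 15.3 CPM. Rar mutants lay wholly within the range of the controls, and the 2 Dmrt1 het Rar mutants stood well above both. Against the other library of lower number in each group, Neb was 2.93-fold above control 1 and 3.36-fold above Rar mutant 1. Neb is overlapped by the antisense gene Gm13522, which had 2 to 29 counts per library where Neb had 221 to 1264.

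Alpk3 (ENSMUSG00000038763, chromosome 7, 81057600 to 81105612, plus strand) had 35.4 and 28.6 CPM in the Dmrt1 het Rar mutants. It ranged from 6.97 to 11.3 CPM in Rar mutants and from 11.5 to 21.5 CPM in controls, with the highest control value in control 1. The ranges of Rar mutants and controls thus abut without overlap. Its kinase acts in the sarcomere of the heart, and its fold over control 1 (1.49) was smaller than over all controls (2.05).

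Ank3 (ENSMUSG00000069601, chromosome 10, 69398773 to 70027438, plus strand) had 115 and 87.6 CPM in the Dmrt1 het Rar mutants. Rar mutants gave 42.3, 29.4 and 37.3 CPM, and controls gave 72.1, 57.3, 80.1, 65.0 and 68.9 CPM. The 3 groups did not overlap, with Rar mutants lowest and Dmrt1 het Rar mutants highest. The lower of the 2 Dmrt1 het values was close to control 3, the highest control.

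Kcnq5 (ENSMUSG00000028033, chromosome 1, 21398403 to 21961942, minus strand), whose channel carries a slow potassium current, gave 38.4 and 30.8 CPM in the Dmrt1 het Rar mutants. Rar mutants had 8.78, 8.80 and 12.1 CPM, and controls had 20.4, 11.1, 14.7, 15.3 and 15.6 CPM. Rar mutant 3 and control 2 overlapped, and control 1 was the highest control. Ano4 (ENSMUSG00000035189, chromosome 10, 88948994 to 89344762, minus strand), of the family of calcium-activated channels and lipid scramblases, had 78.2 and 72.6 CPM in the Dmrt1 het Rar mutants, 20.8 to 35.8 CPM in Rar mutants and 31.7 to 45.3 CPM in controls. Here too 1 Rar mutant, number 3, reached into the control range. Abca4 (ENSMUSG00000028125, chromosome 3, 122044443 to 122180123, plus strand), which clears retinal derivatives from photoreceptor discs, ran at 33.5 and 27.9 CPM, then 9.29 to 11.8 CPM and 14.0 to 24.1 CPM, in the same order of groups. None of the 3 ranges for Abca4 overlapped.

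Tox2 (ENSMUSG00000074607, chromosome 2, 163203125 to 163324170, plus strand) was at 154 and 147 CPM in the Dmrt1 het Rar mutants. It was at 53.9, 42.7 and 62.5 CPM in Rar mutants and at 82.5, 74.2, 110.4, 71.6 and 93.9 CPM in controls. The 3 groups were separate, and the spread was widest among controls. Gpsm1 (ENSMUSG00000026930, chromosome 2, 26315515 to 26348237, plus strand), which binds inactive G-protein alpha subunits, had 112 and 109 CPM in the Dmrt1 het Rar mutants, 55.9 to 60.6 CPM in Rar mutants and 68.5 to 82.0 CPM in controls. It showed the smallest fold of the 8 higher genes against the Rar mutants together with narrow groups (SD 2.51, 2.63 and 5.31 CPM for Dmrt1 het Rar mutants, Rar mutants and controls). Gpsm1 overlaps Dnlz on the opposite strand, which had 399 to 815 counts per library against 1347 to 2667 for Gpsm1, and whether strand was used in counting is not given in the sources used here.

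Hdc (ENSMUSG00000027360, chromosome 2, 126593667 to 126619299, minus strand) gave 12.9 and 12.8 CPM in the Dmrt1 het Rar mutants. Rar mutants 1 to 3 gave 45.7, 103 and 128 CPM, and controls 1 to 5 gave 19.6, 27.7, 19.0, 26.99 and 35.1 CPM. The groups did not overlap, and Rar mutant 1, of lower title number, was well below the other Rar mutants. Within the lower numbers Hdc was 3.57-fold lower than in Rar mutant 1 and 1.53-fold lower than in control 1. Of 6 mast cell markers in the table, a known source of histidine decarboxylase, 5 were below 1 CPM in every library, and the 6 summed to 2.64 to 5.77 CPM. Adrenal cortex markers (5 genes) summed to 3.31, 299 and 274 CPM in Rar mutants 1, 2 and 3, and to 0.655 to 1.23 CPM in the other 7 libraries. Their part in the Hdc values was not tested.

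Hao2 (ENSMUSG00000027870, chromosome 3, 98874521 to 98893239, minus strand), which oxidises hydroxy fatty acids, was at 101 and 80.4 CPM in the Dmrt1 het Rar mutants. Rar mutants had 237, 339 and 317 CPM, and controls had 204, 213, 128, 182 and 211 CPM. All 3 groups were separate. As for Hdc, Rar mutant 1 was the lowest Rar mutant.

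Per transcript length the genes differed widely. In controls the deposited FPKM (fragments per kilobase of transcript, scaled for depth) averaged 90.8 ± 17.2 for Hao2, 25.3 ± 4.66 for Tox2 and 13.5 ± 0.961 for Gpsm1 (SD, n = 5), and the ranges of these 3 and of all lower genes were apart. Then came Ano4 at 5.45 ± 0.814, Hdc at 3.99 ± 1.04, Alpk3 at 2.41 ± 0.612, Ank3 at 2.06 ± 0.249, Kcnq5 at 1.99 ± 0.419 and Abca4 at 1.61 ± 0.349. Each of these 6 overlapped its neighbour in the order. Neb was lowest at 0.502 ± 0.121, below the range of Abca4. In Dmrt1 het Rar mutants Neb reached 1.86 ± 0.171 (n = 2), while Hao2 and Tox2 stood side by side at 44.0 ± 7.24 and 43.9 ± 1.48, the highest of the 10. In Rar mutants Hdc at 14.4 ± 6.67 (n = 3) came after Hao2 at 145 ± 25.7 and Tox2 at 15.6 ± 3.08, and its spread took in Tox2.

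**Figure D2:**
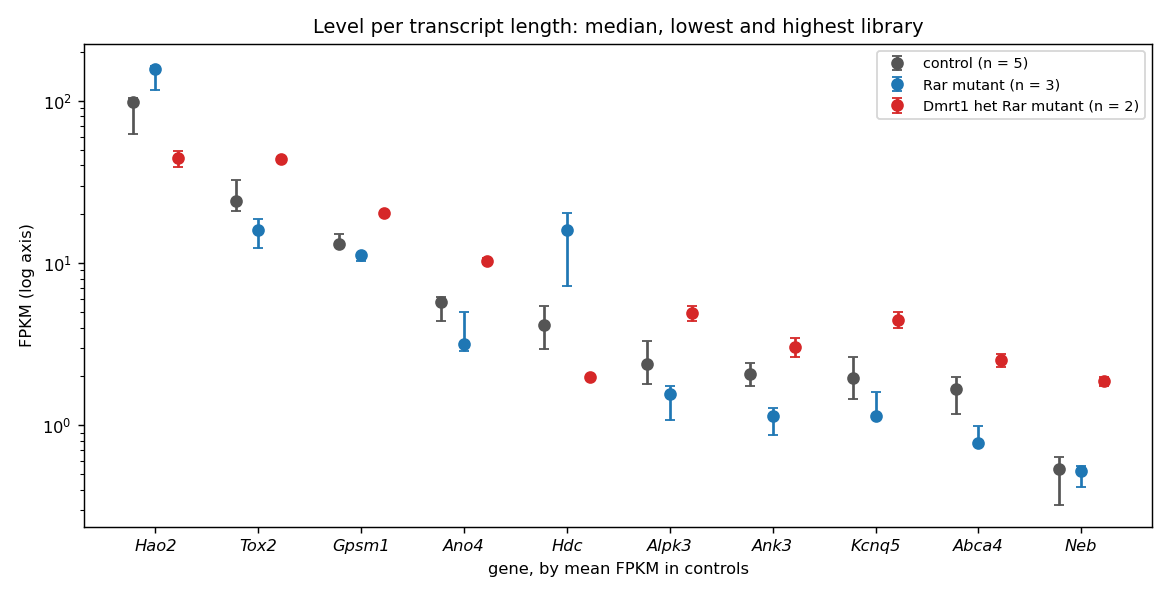
Deposited FPKM of each gene on a log axis, ordered by the control mean, with the median (point) and the lowest and highest library (bars) of each group. Hao2 is highest and Neb lowest in controls, and Hdc moves most between groups.

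The question put to the contrast of Dmrt1 het Rar mutants and Rar mutants is what 1 floxed Dmrt1 allele adds to deletion of the receptors. The fitted log2 differences were 1.91 for Neb (SE 0.26), 1.80 for Kcnq5 (SE 0.25), 1.76 for Alpk3 (SE 0.29), 1.59 for Abca4 (SE 0.25), 1.505 for Tox2 (SE 0.22), 1.502 for Ano4 (SE 0.24), 1.48 for Ank3 (SE 0.20) and 0.90 for Gpsm1 (SE 0.14). Hdc stood at -2.85 (SE 0.43) and Hao2 at -1.71 (SE 0.26). The median over the 10 was 1.504, against -0.01 over all genes tested. With edgeR 0 of 10 passed an adjusted p under 0.05, as did 0% of all genes, and at an unadjusted p under 0.05 the counts were 10 of 10 and 16.9%. DESeq2 passed 10 of 10 and 2.58% of all genes. Because these values chose the genes, nothing is read from the counts.

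Within the 4 libraries of lower title number alone, where the 2 Dmrt1 het Rar mutants met 1 Rar mutant and 1 control, all 10 genes kept their sign and passed (5.33% of genes passed), with the lone libraries assumed to vary like the Dmrt1 het pair. These libraries also took part in choosing the genes. Log2 differences there ran from -1.84 for Hdc and -1.39 for Hao2 to 2.20 for Alpk3. With a term for lower or higher title number in the fit of all libraries 0 of 10 passed, again with 0% of all genes, and the difference was 1.68 for Neb (SE 0.27), 1.35 for Ank3 (SE 0.21) and -2.18 for Hdc (SE 0.32). Without Rar mutant 1, edgeR passed 10 of 10 genes and 335 genes in all. The Rar mutants left in that fit all have higher title numbers, so genotype and title number cannot be told apart there.

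**Figure D3:**
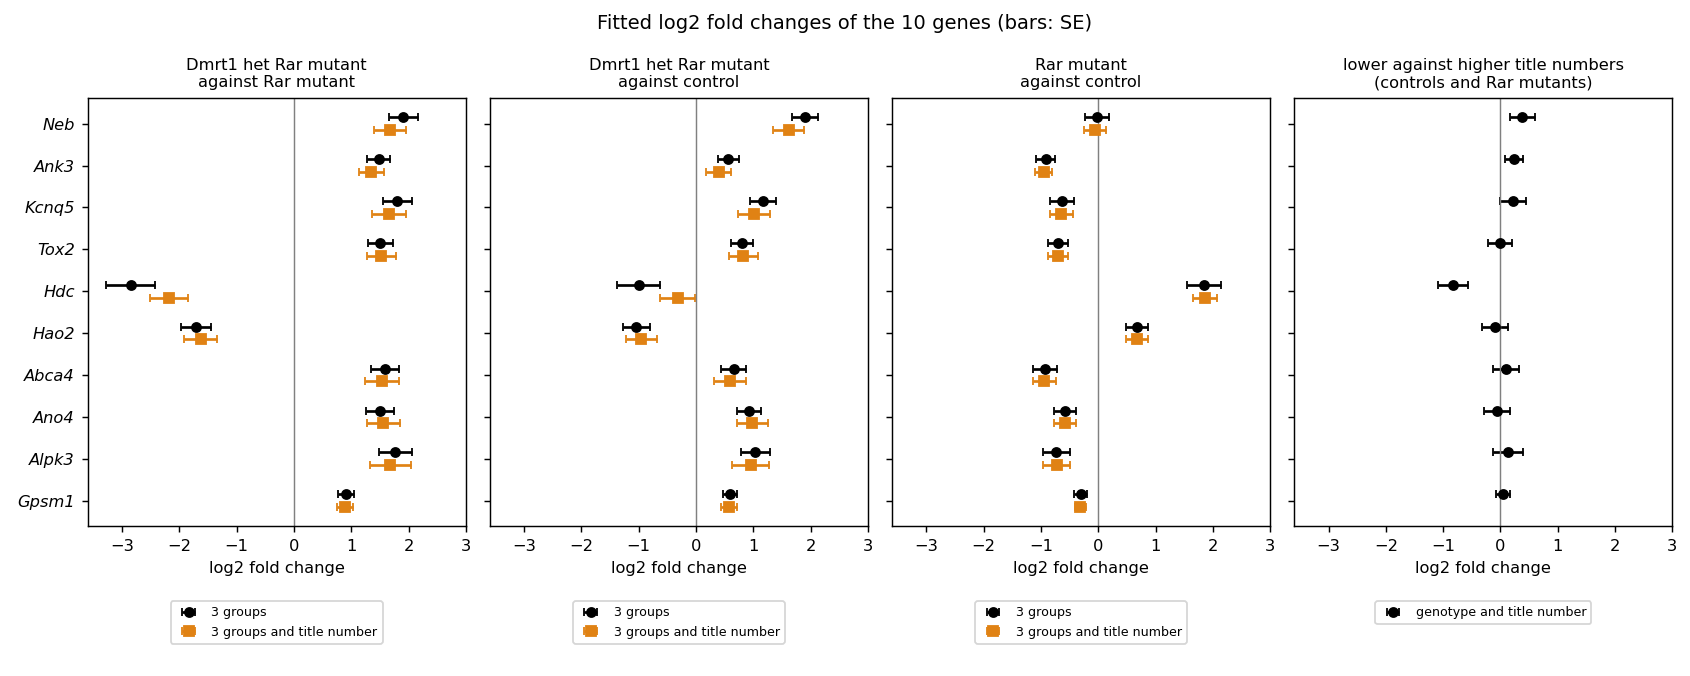
Fitted log2 fold changes with SE for 3 contrasts of groups, without (circles) and with (squares) a title-number term, and for lower against higher title numbers among controls and Rar mutants. Hdc is the gene whose value against controls moves most when the term is added, from -1.002 to -0.32.

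Against controls, Neb rose in the Dmrt1 het Rar mutants (log2 1.89, SE 0.23, edgeR adjusted p = 0.0237), from 13.4 ± 3.25 to 49.96 ± 4.52 CPM. It was 1 of 10 genes to pass, where 0.0194% of all genes did. The same Dmrt1 het values took part in choosing Neb, so this p-value and count are a description only. The other genes that passed were Tdh and Nr6a1, higher by 3.04 and 2.16 on the log2 scale, and Gpc3 at -1.41. Neb did not pass with the title-number term (log2 1.62, SE 0.27, adjusted p = 0.348), where 0 of 10 and 0.00486% of genes passed. It also did not pass without control 2, 3 or 5, Rar mutant 3 or either Dmrt1 het Rar mutant. Nor did it pass in edgeR fits of the 2 groups alone (adjusted p = 0.0636) or with a term for replicate number (adjusted p = 0.0797).

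The remaining 9 did not pass. Log2 values were 1.17 for Kcnq5 (SE 0.22), 1.03 for Alpk3 (SE 0.25), 0.92 for Ano4 (SE 0.21), 0.80 for Tox2 (SE 0.19), 0.66 for Abca4 (SE 0.22), 0.60 for Gpsm1 (SE 0.12) and 0.56 for Ank3 (SE 0.18), with Hao2 at -1.04 (SE 0.24) and Hdc at -1.002 (SE 0.37). At an unadjusted p under 0.05 all 10 passed, beside 17.3% of all genes, and DESeq2 passed 7 of 10 beside 1.36%. In the lower title numbers alone 2 of 10 passed, Neb and Tox2, beside 0.387%. This contrast shares the Dmrt1 het libraries with the one that chose the genes, so its counts are a description. Without control 1, edgeR passed 4 of the 10 (Neb, Kcnq5, Alpk3 and Gpsm1) and 364 genes in all. The controls left in that fit all have higher title numbers, so genotype and title number cannot be told apart there either.

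The Rar mutants against controls hold no Dmrt1 het library, although the Rar mutants entered the contrast that chose the genes. Hdc was 3.59-fold higher (92.3 ± 42.2 against 25.7 ± 6.65 CPM, log2 1.84, SE 0.30, edgeR adjusted p = 0.0675). Ank3 was at 36.3 ± 6.54 against 68.7 ± 8.44 CPM (log2 -0.92, SE 0.17, adjusted p = 0.0929), and Neb at 13.3 ± 1.91 against 13.4 ± 3.25 CPM (log2 -0.02, SE 0.21, adjusted p = 0.988). With edgeR 0 of 10 genes and 0.00972% of all genes passed, and at an unadjusted p under 0.05 the counts were 9 of 10, all but Neb, and 9.45%. DESeq2 passed 4 of 10 (Hdc, Ank3, Abca4 and Tox2) beside 1.54%. The ranges of Rar mutants and controls were apart for 7 of 10 genes, beside 5.14% of all genes tested, and overlapped for Neb, Kcnq5 and Ano4. Since the Rar mutants took part in choosing the genes, this count is a description.

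The title numbers bear on this contrast. As the Rar mutants took part in choosing the genes, the counts and p-values that follow for the 10 are a description. With the title-number term 2 of 10 passed beside 0.413% of all genes: Hdc rose (log2 1.86, SE 0.21, edgeR adjusted p = 0.0189) and Ank3 fell (log2 -0.96, SE 0.15, adjusted p = 0.0366). In that fit 2 of the 5 adrenal cortex markers rose as well, and their part in the Hdc result was not tested. In the 6 libraries of higher number alone 1 of 10 passed, Hdc at 2.08, beside 0.724%. Without Rar mutant 1, Hdc and Ank3 passed and 384 genes did in all. The authors' deposited table, which lists 185 genes for this contrast, holds 1 of the 10, Hdc, with a log2 fold change of 1.43, a standard error of 0.26 and an adjusted p of 5.85e-05. Those values come from libraries of this same series, so they are no separate support. They also come from a different fit, so the size of the fold change is not compared with those above. The other log2 values in the 3-group fit ran from -0.93 for Abca4 (SE 0.21) to -0.31 for Gpsm1 (SE 0.11), with Tox2 at -0.71 (SE 0.18), Alpk3 at -0.73 (SE 0.24), Kcnq5 at -0.64 (SE 0.21) and Ano4 at -0.58 (SE 0.20), and 0.67 for Hao2 (SE 0.19).

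Lower and higher title numbers were then compared within controls and Rar mutants, leaving the Dmrt1 het Rar mutants out. None of the 10 genes passed with edgeR, where 6.87% of 20147 genes did, and at an unadjusted p under 0.05 the counts were 1 of 10 and 28.5%. The 1 gene was Hdc, lower in the lower numbers (log2 -0.83, SE 0.26, edgeR adjusted p = 0.0886), and DESeq2 passed it as well (1 of 10, beside 12.5%). Neb was at 0.38 (SE 0.22), Ank3 at 0.23 (SE 0.16) and Kcnq5 at 0.22 (SE 0.22). The other 6 lay between -0.10 for Hao2 and 0.13 for Alpk3. Control 1 was the highest of the controls for 4 of the 10 genes and the lowest for 0, where it was highest for 30.5% and lowest for 30.6% of all genes tested. The controls and Rar mutants also gave the spread of the fit in which the 10 genes had small p-values. A small p-value there favours genes with little spread within groups, so the counts in this comparison are a description.

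Of the promoters, RefSeq's table on GRCm38.p6 holds entries for 8 of the 10 genes, with 16 starts among them, and none was matched for Neb or Ank3. Each entry is 300 bases around a start. The core of the DMRT1 motif, ACATTGT, was searched on both strands together with the nuclear receptor core AGGTCA, the extended NR5A1 site TCAAGGTCA (which contains AGGTCA) and a direct repeat of retinoic acid receptors with its repeats 5 bases apart. Kcnq5 and Gpsm1 are shown because they hold the matches, and Hdc and Hao2 because they are the genes lower in the Dmrt1 het Rar mutants. Capitals mark the match. Kcnq5 (chr1:21962601-21962900, minus strand) has ACATTGT 12 bases before the start of this entry (position -12). The entry lies wholly outside the Kcnq5 span given above, which ends at 21961942. The other Kcnq5 entry (chr1:21961893-21962192), not shown, takes in that end of the span and has neither ACATTGT nor AGGTCA. Gpsm1 (chr2:26314361-26314660, plus strand) has AGGTCA on the minus strand at position 32. This entry lies before the Gpsm1 span given above, which begins at 26315515. The Gpsm1 entry from 26315283 takes in that position. Hdc (chr2:126618629-126618928) and Hao2 (chr3:98893181-98893480), both on the minus strand, have neither.
Kcnq5: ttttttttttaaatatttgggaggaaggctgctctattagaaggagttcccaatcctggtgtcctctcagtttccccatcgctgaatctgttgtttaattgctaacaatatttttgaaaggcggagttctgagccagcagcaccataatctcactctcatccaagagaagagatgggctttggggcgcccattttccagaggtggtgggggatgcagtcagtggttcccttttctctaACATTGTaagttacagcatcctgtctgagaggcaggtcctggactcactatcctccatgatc
Gpsm1: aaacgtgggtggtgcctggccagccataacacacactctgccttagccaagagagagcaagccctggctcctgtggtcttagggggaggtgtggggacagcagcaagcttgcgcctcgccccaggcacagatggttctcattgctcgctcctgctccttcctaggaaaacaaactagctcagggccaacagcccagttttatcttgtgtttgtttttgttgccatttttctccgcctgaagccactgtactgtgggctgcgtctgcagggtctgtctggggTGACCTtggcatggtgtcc
Hdc: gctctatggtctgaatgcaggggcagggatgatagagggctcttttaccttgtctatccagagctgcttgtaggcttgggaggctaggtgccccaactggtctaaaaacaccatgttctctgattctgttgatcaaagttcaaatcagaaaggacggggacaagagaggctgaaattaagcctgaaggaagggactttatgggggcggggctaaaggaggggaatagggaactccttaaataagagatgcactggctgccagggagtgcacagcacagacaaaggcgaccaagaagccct
Hao2: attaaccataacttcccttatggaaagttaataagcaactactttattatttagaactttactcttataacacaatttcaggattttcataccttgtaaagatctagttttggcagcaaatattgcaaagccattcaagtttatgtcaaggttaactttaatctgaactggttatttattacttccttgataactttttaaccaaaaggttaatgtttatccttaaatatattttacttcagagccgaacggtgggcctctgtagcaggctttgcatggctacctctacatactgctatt
ACATTGT was in 1 of the 8 genes, where 3.41% of 27025 genes with a promoter in the table held it, and AGGTCA in 1 of 8 beside 18.1%. TCAAGGTCA was in 0 of 8 beside 0.47%, and the direct repeat in 0 of 8 beside 0.0111%. By promoter, ACATTGT was in 1 of 16 and AGGTCA in 2 of 16, against 2.96% and 16.3% of 32851. Both AGGTCA promoters are overlapping Gpsm1 entries, from 26314361 and from 26314367, and they hold the same site. The Gpsm1 entries from 26315283 and from 26319520 hold neither motif. A match is a description of these letters only.

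The other genes of each pathway did not pass in any of the 3 contrasts of groups in the fit without a title-number term. Of 36 sarcomere genes listed with Neb, 24 were tested. Between Dmrt1 het Rar mutants and Rar mutants their median log2 difference was -0.13, with 3 higher and 4 lower at an unadjusted p under 0.05, where Neb itself was at 1.91. The smallest p belonged to Tmod1, which caps thin filaments (0.794 ± 0.00672 against 1.90 ± 0.850 CPM). Skeletal muscle markers (7 in the table) summed to 6.05 to 7.36 CPM in Dmrt1 het Rar mutants, 7.17 to 15.5 CPM in Rar mutants and 6.83 to 7.74 CPM in controls, and Ckm, Tnni2, Acta1, Myh1 and Tnnt3 were below 1 CPM in every library. Listed with Alpk3, 11 M-band and alpha kinase genes had a median of 0.51 (9 of 11 above 0, 2 higher at an unadjusted p under 0.05), or 0.31 with the title-number term (1 higher), with Obsl1, a giant protein of the cytoskeleton, at 582 ± 64.7 against 370.0 ± 40.7 CPM.

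For Ank3, 15 ankyrin, spectrin and adaptor genes had a median of 0.35 in that contrast (0.09 with the title-number term), 13 of them above 0 and 2 higher at an unadjusted p under 0.05. They were Epb41, which links spectrin to actin (log2 0.62, SE 0.18), and the ankyrin gene Ank2 (1.24, SE 0.36), which had 36.3 ± 16.6 CPM in Dmrt1 het Rar mutants, 15.4 ± 2.55 in Rar mutants and 16.2 ± 5.71 in controls. In Rar mutants against controls the list's median was 0.02, where Ank3 was at -0.92. Among 7 tested partners and relatives of Kcnq5 the median was -0.08, and the channel subunit Kcne4 was at 3.10 ± 0.606 in Dmrt1 het Rar mutants against 7.33 ± 5.27 CPM in Rar mutants. The 9 anoctamins had a median of 0.42, with Ano3 at 2.69 ± 0.414 against 1.25 ± 0.193 CPM. For Tox2, the 3 other family members had a median of 0.09, with Tox at 1.14 (SE 0.72).

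Of the 8 tested genes of histamine synthesis, breakdown and reception, the median was 0.14 and the range -2.62 to 1.29, where Hdc was at -2.85. Slc18a2, the vesicular transporter of histamine and other monoamines, had 330 ± 63.8 CPM in Dmrt1 het Rar mutants, 158 ± 58.0 in Rar mutants and 167 ± 32.9 in controls (log2 1.07, SE 0.31 against Rar mutants). The 17 peroxisomal genes listed with Hao2 had a median of -0.03, the smallest p being that of the oxidase Acox3, which was higher (52.3 ± 4.93 against 29.7 ± 5.03 CPM). ABCA transporters, 11 of them, had a median of 0.28, with 10 above 0 and 0 at an unadjusted p under 0.05, but the sign flipped to -0.24 with the title-number term, and between lower and higher title numbers their median was 0.97. The 10 genes of the visual retinoid cycle had a median of -0.54 where Abca4 was at 1.59, with Rbp4, the carrier of retinol in blood, at 1.28 ± 0.265 against 6.27 ± 2.96 CPM. Lrat, which stores retinol as esters, was at 5.88 ± 0.129, 6.06 ± 3.17 and 24.6 ± 12.8 CPM in Dmrt1 het Rar mutants, Rar mutants and controls, and with the title-number term it fell in Rar mutants (log2 -2.18, edgeR adjusted p = 0.0350). G-protein alpha subunits and their regulators, 12 genes listed with Gpsm1, had a median of -0.19 (0.01 with the title-number term), with the smallest p for Numa1, which orients the spindle (0.56, SE 0.23).

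In Rar mutants against controls the list genes of smallest p lay on both sides of 0: Lrat at -2.02 (SE 0.47), Ano9 at -2.02 (SE 0.66), Eef2k at -0.50 (SE 0.14), Ank1 at -0.33 (SE 0.18) and Acox3 at -0.31 (SE 0.17), against Kcne4 at 1.54 (SE 0.37), Abca1 at 1.10 (SE 0.36), Actn3 at 0.96 (SE 0.30), Maob at 0.73 (SE 0.25), Gnai1 at 0.62 (SE 0.22) and Tox4 at 0.14 (SE 0.11). Between lower and higher title numbers, 5 list genes passed with edgeR: Nebl, Trpm7, Alpk1 and Sptbn1 were higher in the lower numbers (log2 1.51, 0.87, 0.59 and 0.75), and Tmod4 was lower (-1.69). Nebl is a relative of nebulin and Sptbn1 a beta spectrin, and the 10 genes themselves did not pass there.

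**Figure D4:**
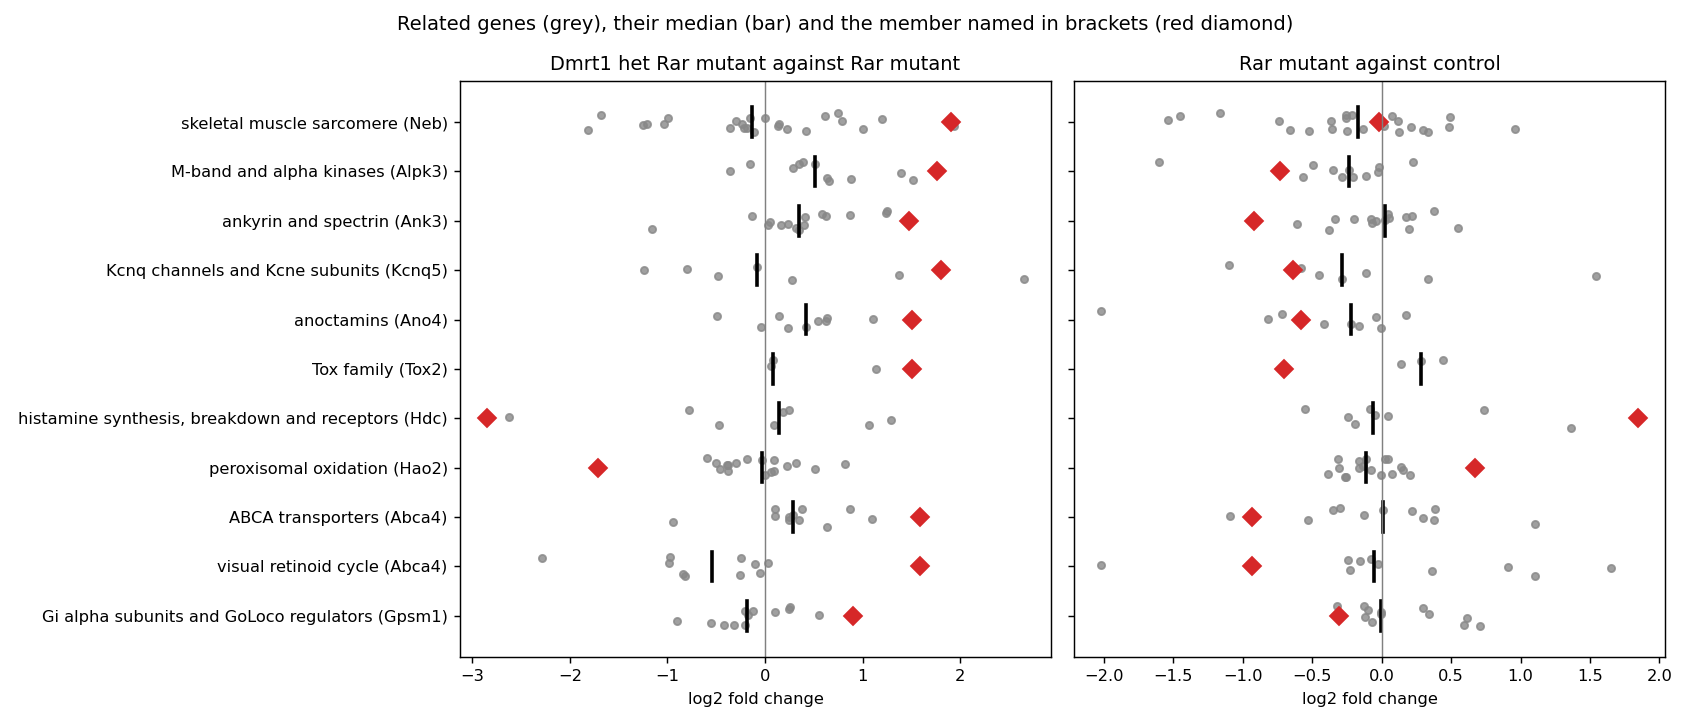
Log2 fold changes of the genes listed with each of the 10 (grey points), their median (bar) and the gene itself (red diamond), for Dmrt1 het Rar mutants against Rar mutants and for Rar mutants against controls. In the left panel every diamond but those of Kcnq5 and Neb lies beyond all grey points of its row, and this contrast chose the diamonds.

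Markers of other cell types were summed in the same libraries, and no marker of the 5 lists given here passed in any of the 3 contrasts of groups. Surface epithelium markers (8 genes) summed to 151 and 174 CPM in the Dmrt1 het Rar mutants, 255 to 363 CPM in Rar mutants and 277 to 516 CPM in controls. They also went with title number: the lower numbers ran from 151 to 277 CPM and the higher from 329.9 to 516 CPM without overlap. Between lower and higher numbers among controls and Rar mutants 4 of the 8 fell and 1 rose with edgeR (median log2 -0.91). In Dmrt1 het Rar mutants against controls the median was -1.23 (7 of 8 lower at an unadjusted p under 0.05, 0 higher). It was -1.10 with the title-number term (6 lower, 0 higher). Against Rar mutants it was -0.97 (6 lower, 0 higher), or -0.51 with the term (1 lower, 0 higher). Granulosa cell markers (10 genes) summed to 4759 and 5048 CPM in Dmrt1 het Rar mutants, 2425 to 3870 CPM in Rar mutants and 3084 to 7278 CPM in controls, and corpus luteum markers (8 genes) to 5006 and 7368 CPM, 8158 to 13616 CPM and 4378 to 9363 CPM in that order. For both lists the Dmrt1 het values lay within the range of the controls and outside that of the Rar mutants. Against Rar mutants the granulosa median log2 difference was 0.76 (5 of 10 higher at an unadjusted p under 0.05, 0 lower). It was 0.86 with the title-number term (4 higher, 0 lower). The corpus luteum median was -0.33 (3 of 8 lower, 0 higher), or -0.75 with the term (2 lower, 0 higher). Erythroid markers (5 genes) summed to 470, 2003 and 2706 CPM in Rar mutants 1, 2 and 3, the same order as Hdc. They summed to 371 and 593 CPM in Dmrt1 het Rar mutants and to 297 to 1635 CPM in controls. Among the controls, control 3 had the highest erythroid sum (1635 CPM) and the lowest Hdc (19.0 CPM). Against Rar mutants the median log2 difference of the erythroid markers in the Dmrt1 het Rar mutants was -1.82 (3 of 5 lower at an unadjusted p under 0.05, 0 higher). It was -0.39 with the title-number term. Smooth muscle markers (6 genes) had a median of -0.99 in that contrast (1 lower), or -0.38 with the term. No marker in these 5 lists was below 1 CPM in every library, and their part in the values of the 10 genes was not tested.

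On chromosome 2 lie 4 of the 10 genes (Gpsm1, Neb, Hdc and Tox2), and it holds 7.87% of the tested genes with a position, with 2 on chromosome 3, 2 on chromosome 10 and 1 each on 1 and 7. None lies on chromosome 19, 11, 14 or 15, which hold Dmrt1, Rara, Rarb and Rarg. Nr5a1, whose regulatory sequence drives Sf1-Cre, is on chromosome 2 with those 4 genes, and where the transgene lies is not given in the sources used here. Of the 20 nearest tested neighbours, 1 on each side of each gene, 0 passed in any of the 3 contrasts of groups, and 5, 5 and 3 were at an unadjusted p under 0.05 in Dmrt1 het Rar mutants against controls, against Rar mutants and in Rar mutants against controls, where 17.3%, 16.9% and 9.45% of all genes were. Beside Hdc, Slc27a2, a fatty acid transporter, was at -2.36 and -2.18 (SE 0.50 and 0.41) in the Dmrt1 het Rar mutants and Rar mutants against controls, opposite in sign to Hdc in the second.

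The genes most alike in pattern were taken by Pearson's r of log2 CPM over the 10 libraries, among 16656 genes, as a description in which all points share group and title number. For Neb they were R3hdm1 (0.975), Kank1 (0.968) and Auts2 (0.962), and for Ank3 they were Mpp3 (0.978), Limch1 (0.967) and Zdhhc1 (0.965). R3hdm1 had 168 ± 8.60 CPM in Dmrt1 het Rar mutants, 88.7 ± 5.05 in Rar mutants and 93.4 ± 14.6 in controls, so it too left Rar mutants at the control level. Those of Hdc were Mrap (0.963), Mcfd2 (0.941) and Tmem38b (0.940). Mrap, an accessory protein of the ACTH receptor, had 33.6 ± 8.53, 322 ± 195 and 65.9 ± 31.6 CPM in the same order of groups.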

How the data were processed

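PolyA RNA of whole ovaries was sequenced in 10 libraries (5 controls, 3 Rar mutants, 2 Dmrt1 het Rar mutants), grouped by the genotype in the labels. Per the submitters' processing notes, the tools were STAR 2.4.2a, Trimmomatic 0.32, DESeq2 1.12.3 and SAMtools 1.0, and the build GRCm38. The counting tool, annotation release and use of strand are not given in the sources used here. The deposited count table holds raw counts per Ensembl gene. The deposited FPKM values carry a scaling between libraries that matches size factors by medians of ratios, which was checked by dividing counts by FPKM. Per the file headers, the authors' gene table gives each gene's mean count signal, its log2 fold change and the error of that, the test's score, and raw and adjusted p-values.

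Counts were fitted by edgeR 4.0.16 (R 4.3.3; quasi-likelihood, TMM, filterByExpr, robust), two-sided, in 1 model of 3 groups, with Benjamini-Hochberg adjusted p under 0.05 over all genes as the threshold. SE is approximate, the fold change over the square root of F. CPM uses TMM library sizes, errors of CPM and FPKM are SDs, and n counts libraries. Lower against higher title numbers was fitted with genotype over 8 libraries. DESeq2 1.42.0 and other settings were alternatives. The code was tested on simulated data. No library was a duplicate of another of its group. Same-numbered libraries of different groups were not paired by the labels.

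The genes and the gene lists were chosen with earlier results of these data known. Named genes are the 10, Dmrt1 and the receptor genes, from each list the genes called or otherwise the 1 of smallest p per contrast, and the 3 most alike in pattern to Neb, Ank3 and Hdc. Of the tables' identifiers, 24038 matched GENCODE M21. Slc27a2, Tdh, Nr6a1 and Gpc3 were named after their values were seen.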

Additional observations from a re-analysis of the deposited data

How the results depend on the processing

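Between Dmrt1 het Rar mutants and Rar mutants, edgeR called 0 genes. DESeq2 called 626 genes and 10 of the 10, the lower title numbers alone 1088 and 10, and the replicate block 6 and 3 (Neb, Ank3 and Tox2). Against controls, edgeR called 4 genes and 1 of the 10. DESeq2 called 329 and 7, the title-number term 1 and 0, the lower title numbers alone 79 and 2, the replicate block 0 and 0 (Neb at an adjusted p of 0.0797), and the 2 groups alone 4 and 0 (Neb at 0.0636). For Rar mutants against controls, edgeR called 2 and 0. DESeq2 called 372 and 4, the title-number term 85 and 2, the higher title numbers alone 142 and 1, and the 2 groups alone 1 gene. For lower against higher title numbers, 1384 genes and 0 of the 10 became 3018 and 1 with DESeq2 (1071 higher and 313 lower against 1684 and 1334). Size factors of DESeq2 in edgeR and no low-count filter kept each of these counts within 1.5 times. The cause was not tested.

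Leaving out 1 library at a time gave 0 to 335 genes and 0 to 10 of the 10 against Rar mutants, 0 to 364 and 0 to 4 against controls, 1 to 384 and 0 to 2 for Rar mutants against controls, and 3 to 2181 and 0 to 1 for title numbers. The highest counts came without Rar mutant 1, control 1, Rar mutant 1 and control 3, and the lowest for title numbers without Rar mutant 1. Leaving out Rar mutant 1 or control 1 leaves that group with higher title numbers alone. Its contrast with the Dmrt1 het Rar mutants then cannot be told apart from title number. Title numbers also gave 5 genes without control 1, 357 without control 4, 295 without control 5 and 109 without Rar mutant 2. Against controls the 4 genes became 0 without the second Dmrt1 het Rar mutant and 1 without the first. Of 620 values of the 10 genes, 14 changed sign, all in leave-one-out fits and all of genes that were not called: Neb in Rar mutants against controls (-0.14 to 0.0926, the latter without Rar mutant 2), and for title numbers Kcnq5 (-0.22 to 0.53), Tox2 (-0.12 to 0.0841), Abca4 (-0.16 to 0.29), Alpk3 (-0.58 to 0.61), Hao2 (-0.44 to 0.16) and Ano4 (-0.48 to 0.24). Of the others, 543 kept direction and side of the threshold, 54 newly passed and 9 no longer did.

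Replicate numbers are shared between groups, but the labels do not pair these libraries, so the numbers were not taken as a pairing. Of the same-number pairs, 3 of 7 correlated above 0.1 (r from -0.12 to 0.46), and 5 of 8 libraries correlated best with their own number. The highest r was between control 1 and Rar mutant 1, which also share lower title numbers. These correlations therefore cannot decide whether libraries were paired. No paired analysis was possible for title numbers because, within controls and Rar mutants, replicate number 1 marks the same libraries as the lower title numbers. Both Dmrt1 het libraries have lower title numbers, so 2 libraries carry every Dmrt1 het value, and genotype rests on control 1 and Rar mutant 1 for its separation from title number.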
